A study of Homo sapiens and Mus musculus with 57 samples.

Results

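The genes described here are 10 components of the NF-kB pathway, chosen by name as a set of subunits, inhibitors and feedback genes and read from the human gene tables: the subunit genes NFKB1, NFKB2, RELA and RELB, the inhibitor genes NFKBIA and NFKBIE, the IkB-related regulator BCL3, the feedback gene TNFAIP3, and the responsive genes TNFAIP2 and ICAM1. All 10 had a row among the 30373 gene rows of the human tables. RNA was sequenced from cultured tumour lines after 16 h of treatment with TAK-981 or ML-792, both inhibitors of SUMO-activating enzyme and both used at 1 uM, or with DMSO, their vehicle. Of 57 libraries, the 33 human ones were used, in 11 groups of 3, and the 24 mouse libraries were not used here. THP-1, a line from a monocytic leukaemia, received DMSO or TAK-981. HCT116 and Colo205, lines from colorectal carcinomas, and MDA-MB-231, a line from a breast carcinoma, received DMSO, TAK-981 or ML-792. All groups were grown alone in wells, with no other cell type, no added cytokine and no genetic change named in the labels.

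NF-kB proteins are dimeric transcription factors that wait in the cytoplasm bound to IkB inhibitors. Signals from cytokine and Toll-like receptors activate the IkB kinases, IkB is degraded, and the freed dimers enter the nucleus and bind kappaB sites of their target genes. Those targets include the genes of IkB proteins and of TNFAIP3, which act as negative feedback. SUMO-activating enzyme is the heterodimer that starts the attachment of SUMO proteins to other proteins, and IkB-alpha, the product of NFKBIA, is among the proteins known to carry SUMO.

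The RefSeq promoter table for GRCh38.p14 held windows for 8 of the 10 genes, 12 windows in all, and none for RELB and NFKBIE. The 250 bases before each start site were searched on both strands for the kappaB motif, with overlapping matches merged into 1 place and the 50 bases after the start not searched. The motif was GGG, then A or G, any base, A or T, C or T, C or T, and CC. A match was found in 5 of the 12 windows, belonging to 4 of the 8 genes (NFKB1, NFKB2, NFKBIA and TNFAIP3), while 5.21% of all 35116 windows and 6.28% of all 27305 genes in the table held one. None was found in the windows of RELA, BCL3, TNFAIP2 and ICAM1. Sites that depart from this pattern or lie elsewhere would be missed, so this does not show that these genes lack kappaB sites. All 250 bases searched for ICAM1 lie in annotated exons. Of the runs printed here, that of NFKBIA is shown because this IkB gene rose most among the 6 subunit and inhibitor genes in THP-1, and that of TNFAIP2 because this gene moved most in MDA-MB-231. The NFKBIA run covers chr14:35404750-35404999 on the minus strand, and its match, in capitals, lies 72 to 81 bases before the start. That match reads as the motif on the strand opposite to the one printed.
NFKBIA: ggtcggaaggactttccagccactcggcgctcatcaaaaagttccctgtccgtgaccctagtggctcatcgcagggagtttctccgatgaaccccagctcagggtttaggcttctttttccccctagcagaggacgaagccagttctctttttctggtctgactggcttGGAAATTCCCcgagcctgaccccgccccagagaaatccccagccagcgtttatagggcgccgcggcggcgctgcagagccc
The TNFAIP2 run covers chr14:103123211-103123441 on the plus strand, lies outside annotated exons and has no match, so all of it is in lower case.
TNFAIP2: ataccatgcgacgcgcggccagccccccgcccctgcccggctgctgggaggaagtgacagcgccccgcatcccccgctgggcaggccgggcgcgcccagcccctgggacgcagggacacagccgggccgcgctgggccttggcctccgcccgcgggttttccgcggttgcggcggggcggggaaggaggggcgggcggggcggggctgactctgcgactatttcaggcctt
Stretches of 30 bases around the matches of the 3 other genes are printed to show how the matched letters differ among them, again with the match in capitals, from chr4:102501300-102501329 (NFKB1), chr10:102394461-102394490 and chr10:102394490-102394519 (NFKB2) and chr6:137867182-137867211 and chr6:137867194-137867223 (TNFAIP3), all on the plus strand.
NFKB1: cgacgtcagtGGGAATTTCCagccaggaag
NFKB2, far match: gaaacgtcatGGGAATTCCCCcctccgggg
NFKB2, near match: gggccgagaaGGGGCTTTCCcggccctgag
TNFAIP3, far match: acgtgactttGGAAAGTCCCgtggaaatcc
TNFAIP3, near match: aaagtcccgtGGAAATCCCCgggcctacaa
The NFKB1 match lies 40 to 49 bases before the start. The NFKB2 window printed here is the second of 3, with matches 97 to 107 and 69 to 78 bases before its start, and the far one reads as the motif on both strands. Both TNFAIP3 matches read as the motif on the minus strand, 58 to 67 and 46 to 55 bases before the start. The matches printed for NFKB1, NFKB2 and TNFAIP3 overlap annotated exons, and that of NFKBIA does not. A match describes the letters of these windows and says nothing about binding in these cells.

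Libraries held 17336368 to 25807864 estimated counts, with 16859 to 18189 genes detected. No 2 libraries of a group were identical, and each of the 33 pairs was farther apart than counting noise allows, with a chi-square of 2.13 to 19.0 per degree of freedom. In THP-1, 7 of 8 myeloid markers had a mean of at least 1 FPKM (fragments scaled to gene length and library size) with DMSO. Epithelial markers reached that level for 7 of 7 genes in HCT116, 6 of 7 in Colo205 and 5 of 7 in MDA-MB-231, where CDX2 was at 0, and mesenchymal markers for 5 of 6 genes in MDA-MB-231, 4 of 6 in THP-1, 4 of 6 in HCT116 and 1 of 6 in Colo205. Colo205 also carried 1188 FPKM of the myeloid list gene LYZ, with SPI1 at 0 and PTPRC at 0.00803 FPKM. Summed lymphoid markers stayed at or below 1.23 FPKM in every library. With DMSO, endothelial and fibroblast markers had a mean of at least 1 FPKM for 3 of 5 genes in MDA-MB-231. This held for 1 of 5 in THP-1, 1 of 5 in HCT116 and 0 of 5 in Colo205. In THP-1 that gene was PECAM1, at 28.7 FPKM with DMSO and 15.9 FPKM with TAK-981. In HCT116 it was COL1A1, at 5.64 FPKM with DMSO. In MDA-MB-231 the list summed to a mean of 5.32 FPKM with DMSO. The source of this RNA was not tested. With TAK-981 in THP-1, the share of counts from mitochondrially encoded genes went from 7.38% ± 0.215 to 15.5% ± 1.75 (SD, n = 3), and the summed myeloid markers went from a range of 976 to 1041 FPKM to a range of 521 to 573 FPKM. Most of that sum was LYZ, with a mean of 777 FPKM with DMSO and 258 FPKM with TAK-981. CSF1R (12.8 and 11.8 FPKM) and MPO (2.25 and 0.741 FPKM) also had lower means, while the other 5 markers had higher means, among them PTPRC (37.4 and 73.3 FPKM), CD14 (0.96 and 5.48 FPKM) and ITGAM (4.25 and 6.08 FPKM). The part of these shifts in the changes of the NF-kB genes was not tested. In bulk RNA, fewer cells of a type and less RNA per cell cannot be told apart. Since the labels mention triplet wells but not separate cultures, the spread behind each p-value is that between these libraries and may be technical.

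With DMSO alone, the lines carried different sets of NF-kB components (means of 3 DMSO libraries ± SD, in FPKM). MDA-MB-231 had the highest RELA, RELB, NFKBIA, BCL3, TNFAIP2 and ICAM1 levels of the 4 lines. THP-1 had the lowest NFKB1, NFKB2, RELA, BCL3 and ICAM1 levels, and Colo205 the lowest RELB, NFKBIA, NFKBIE and TNFAIP2 levels. NFKB1 spanned the narrowest range, from 7.35 ± 0.255 in THP-1 to 12.4 ± 0.519 in Colo205, 15.2 ± 0.966 in MDA-MB-231 and 15.4 ± 0.812 in HCT116. NFKB2 stood at 24.4 ± 1.64 in HCT116 and 21.9 ± 0.794 in MDA-MB-231, against 4.41 ± 0.376 in Colo205 and 2.26 ± 0.348 in THP-1. RELA, the main transactivating subunit, fell in the order MDA-MB-231 (54.1 ± 1.52), HCT116 (29.7 ± 2.11), Colo205 (21.7 ± 1.35) and THP-1 (7.81 ± 0.696). Per length, THP-1 had less RELA than NFKBIA, while both colorectal lines and MDA-MB-231 had more RELA than NFKBIA. RELB was at 9.43 ± 0.664 in MDA-MB-231 and between 2.75 ± 0.264 and 4.10 ± 0.643 in the other lines.

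Among the inhibitors, NFKBIA was at 32.9 ± 3.16 FPKM in MDA-MB-231, 26.3 ± 1.23 in THP-1, 23.5 ± 0.503 in HCT116 and 7.41 ± 0.324 in Colo205. NFKBIE separated the lines in pairs, with 16.0 ± 1.05 in THP-1 and 15.5 ± 0.460 in MDA-MB-231 against 3.27 ± 0.627 in HCT116 and 1.02 ± 0.0979 in Colo205. BCL3 was at 13.9 ± 0.860 in MDA-MB-231, 7.25 ± 0.414 in Colo205, 6.55 ± 0.482 in HCT116 and 0.814 ± 0.1 in THP-1. TNFAIP3 went against the order of most of the others, with its highest level in Colo205 (5.09 ± 0.456) and its lowest in HCT116 (0.823 ± 0.170). TNFAIP2 was at 44.5 ± 2.62 in MDA-MB-231, 22.5 ± 1.82 in THP-1, 22.3 ± 1.44 in HCT116 and 2.11 ± 0.292 in Colo205. ICAM1 had the widest spread, 15.3 ± 1.09 in MDA-MB-231 against 1.74 ± 0.178 in HCT116, 0.413 ± 0.108 in Colo205 and 0.1 ± 0.0635 in THP-1, a ratio of 153 between the ends. Of 60 tests between pairs of lines, 57 were called by edgeR's quasi-likelihood test in 1 fit of all human libraries, with 83.4% (THP-1 against HCT116), 85% (THP-1 against Colo205), 83.4% (THP-1 against MDA-MB-231), 78.3% (HCT116 against Colo205), 77.1% (HCT116 against MDA-MB-231) and 79.7% (Colo205 against MDA-MB-231) of all 17473 genes called. The 3 that were not called were RELB between THP-1 and HCT116 and both NFKB1 and NFKB2 between HCT116 and MDA-MB-231 (Benjamini-Hochberg adjusted p of 0.900, 0.061 and 0.421).

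**Figure D1:**
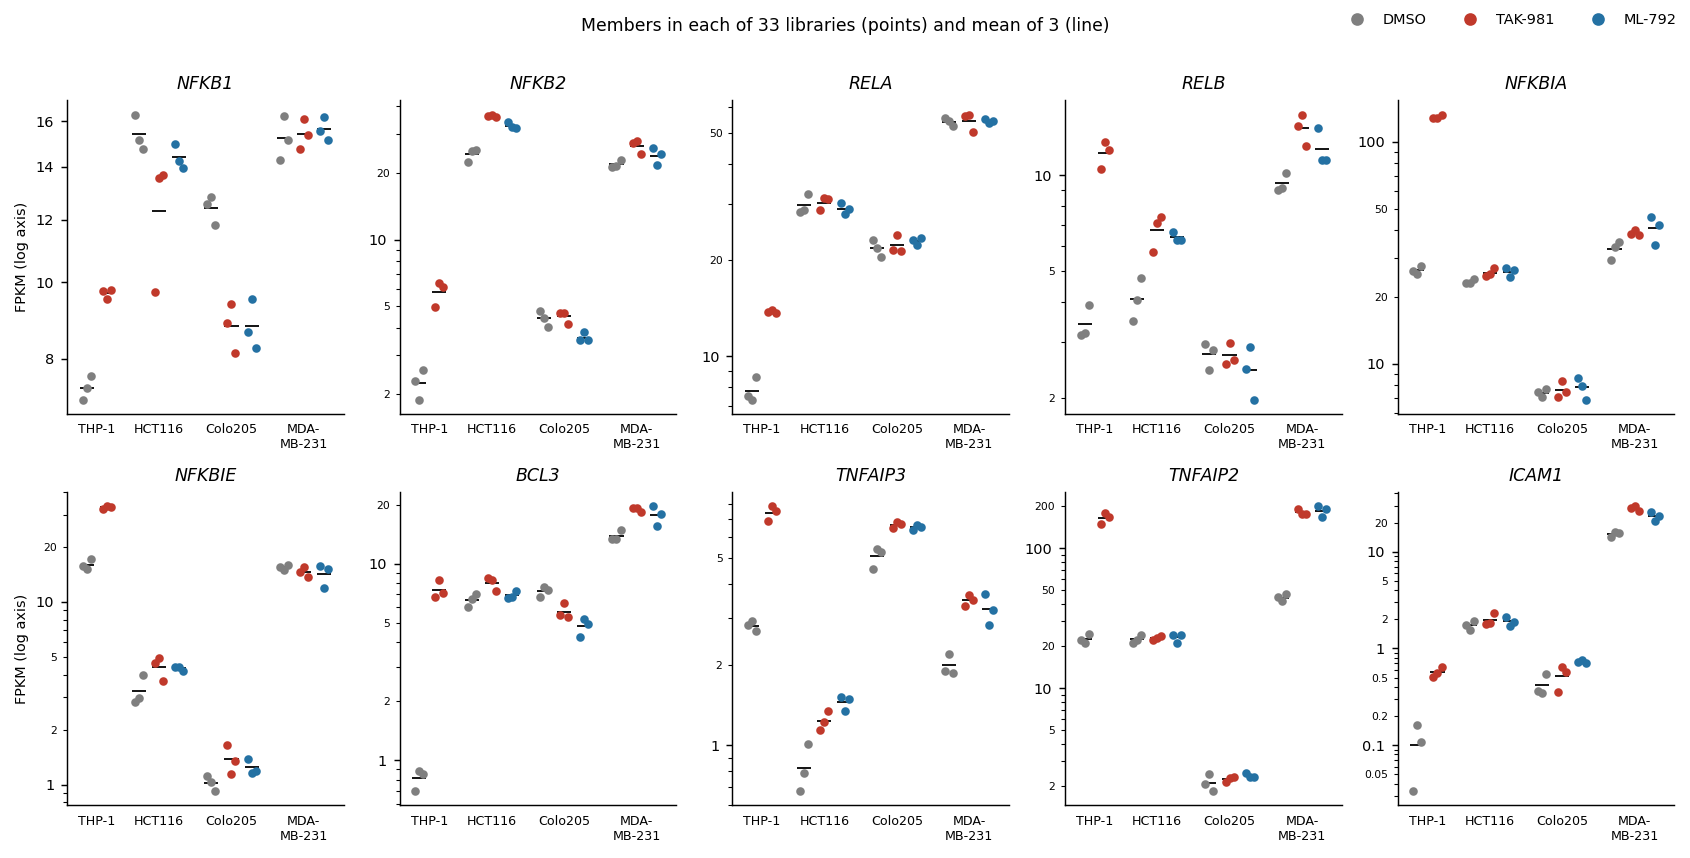
Level of each of the 10 genes in FPKM on log axes, with 1 point per library, a line at the mean of 3, and colours for DMSO, TAK-981 and ML-792. NFKBIA, BCL3 and TNFAIP2 stand clearly higher with TAK-981 in THP-1, and TNFAIP2 stands higher with both inhibitors in MDA-MB-231. ICAM1 also stands higher with TAK-981 in THP-1, but from only 2, 8 and 5 counts with DMSO. It passed the filter on low counts there only through its TAK-981 libraries. ICAM1 spans from 0.1 to 15.3 FPKM among the untreated lines.

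With TAK-981 in THP-1, 9 of the 10 genes rose and none fell (edgeR's quasi-likelihood test on estimated counts, Benjamini-Hochberg adjusted p under 0.05), while 69.4% of 14526 genes tested were called. Of the 9, ICAM1 passed the filter on low counts only through its TAK-981 libraries, so its direction was largely set by the filter. In HCT116, 4 rose and none fell with TAK-981 (background 14.4%), and 3 rose and none fell with ML-792 (11.3%). In Colo205, 1 rose and 2 fell with TAK-981 (35.9%), and 2 rose and 3 fell with ML-792 (41.8%). In MDA-MB-231, 6 rose and none fell with either TAK-981 (20.2%) or ML-792 (22.6%). By direction, 35.5% of all genes were called higher and 33.9% lower in THP-1. These shares were 7.66% and 6.73% with TAK-981 and 5.99% and 5.27% with ML-792 in HCT116. They were 17.9% and 18% with TAK-981 and 20.9% and 20.8% with ML-792 in Colo205. In MDA-MB-231 they were 10.6% and 9.52% with TAK-981 and 11.6% and 11% with ML-792. The median log2 fold change of the 10 genes was 1.35 in THP-1, 0.25 and 0.18 in HCT116, 0.03 and 0.06 in Colo205, and 0.37 and 0.31 in MDA-MB-231, each with TAK-981 first. Over all genes tested, the median was 0.03 in THP-1. Treated and DMSO libraries did not overlap for 72.1% of all genes tested in THP-1. With TAK-981 and ML-792 this share was 32.5% and 33.1% in HCT116 and 50% and 50.3% in Colo205. It was 34.6% and 38% in MDA-MB-231. Between TAK-981 and ML-792 the libraries did not overlap for 22% of all genes in HCT116, 14.4% in Colo205 and 12.1% in MDA-MB-231. The counts of 3 and 5 of 10 in Colo205 were close to the share of all genes called there, and no test of these counts was made. All counts and values here come from fits without a replicate block, also where numbers were taken to pair libraries. With the block, TAK-981 and ML-792 called 4 and 5 in Colo205 (43.2% and 48.7% of all genes), and TAK-981 called 7 in MDA-MB-231 (25.1%). TAK-981 and ML-792 were compared with the same 3 DMSO libraries of a line, so their values below are given side by side and share that error.

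**Figure D2:**
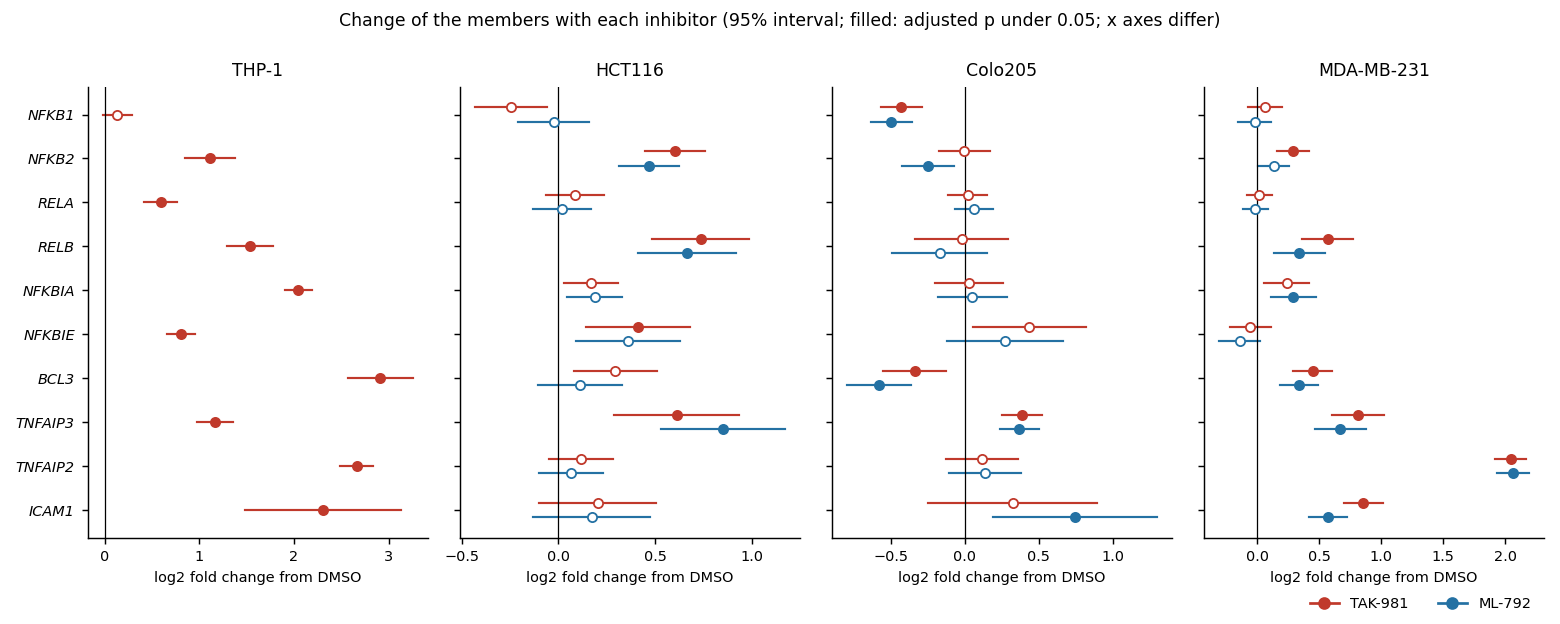
Log2 fold change from DMSO of each of the 10 genes in the 4 lines, with the 95% interval as a bar, TAK-981 and ML-792 in colour, and filled points for an adjusted p under 0.05. In THP-1 9 of 10 points are filled and lie to the right of 0, where 69.4% of all genes were called. ICAM1 passed the filter on low counts there only through its TAK-981 libraries. In Colo205 NFKB1 and BCL3 lie to the left, and in MDA-MB-231 TNFAIP2 lies near 2 with both inhibitors.

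Of the subunit genes, RELB and NFKB2, which encode the partners of the alternative NF-kB dimer, rose with TAK-981 in THP-1, HCT116 and MDA-MB-231, and NFKB1, whose product is the precursor of the p50 subunit, fell with both inhibitors in Colo205. Values are counts scaled to library size by TMM (CPM) in the 3 libraries of a group. RELB in THP-1 read 7.81, 7.89 and 9.53 CPM with DMSO and 21.7, 26.7 and 24.8 CPM with TAK-981. The groups lay far apart, and the log2 fold change was 1.54 (SE 0.113, adjusted p = 2.87e-08). In HCT116, RELB read 7.90, 9.16 and 10.3 CPM with DMSO, 13.1, 15.9 and 16.5 CPM with TAK-981 and 14.8, 14.6 and 14 CPM with ML-792. Every treated library was above every DMSO library, with changes of 0.74 (SE 0.117, adjusted p = 0.000895) for TAK-981 and 0.66 (SE 0.118, adjusted p = 0.00231) for ML-792. In MDA-MB-231 it read 20.1, 21.0 and 22.9 CPM with DMSO, 32.1, 35.1 and 27.8 CPM with TAK-981 and 31.5, 24.9 and 25.1 CPM with ML-792. The groups again did not overlap, with changes of 0.57 (SE 0.0964, adjusted p = 0.000499) and 0.34 (SE 0.0972, adjusted p = 0.019), and the ML-792 call was lost without its first library (0.22, adjusted p = 0.115). In Colo205 the RELB groups overlapped, with changes of -0.02 (TAK-981) and -0.17 (ML-792), neither of which was called.

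NFKB2 in THP-1 read 7.75, 6.41 and 8.23 CPM with DMSO and 14.2, 17.3 and 17.0 CPM with TAK-981. The lowest treated library was well above the highest control, and the change was 1.12 (SE 0.123, adjusted p = 1.87e-06). In HCT116 NFKB2 read 64.6, 74.7 and 73.7 CPM with DMSO, 109, 111 and 103 CPM with TAK-981 and 101, 98.7 and 94.8 CPM with ML-792. Both inhibitors set it above all controls, by 0.60 (SE 0.0723, adjusted p = 8.70e-05) and 0.47 (SE 0.0724, adjusted p = 0.000843). In MDA-MB-231 it read 62.3, 63.7 and 64.8 CPM with DMSO, 79.4, 82.2 and 71.4 CPM with TAK-981 and 74.7, 63.8 and 71.2 CPM with ML-792. TAK-981 separated from the controls with a change of 0.29 (SE 0.0599, adjusted p = 0.00259), whereas the ML-792 libraries reached down into the control range (0.13, adjusted p = 0.129). In Colo205 NFKB2 read 13.7, 12.6 and 12.6 CPM with DMSO, 13.4, 12.6 and 12.9 CPM with TAK-981 and 11.2, 10.7 and 11 CPM with ML-792. The ML-792 libraries were all below the controls, with a called difference of -0.25 (SE 0.0813, adjusted p = 0.0254), and the TAK-981 value was 0.00 (adjusted p = 0.993). The direct difference between the inhibitors was not called (0.25, adjusted p = 0.332). The ML-792 call was lost without DMSO library 1, ML-792 library 2 or ML-792 library 3, at adjusted p of 0.0932, 0.0647 and 0.0552.

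NFKB1 in Colo205 read 45.4, 44.7 and 41.6 CPM with DMSO, 31.2, 34.5 and 32.2 CPM with TAK-981 and 30.6, 33.2 and 29.4 CPM with ML-792. All 6 treated libraries were below the 3 controls, and NFKB1 fell by 0.43 (SE 0.0644, adjusted p = 0.000162) and by 0.49 (SE 0.0649, adjusted p = 4.81e-05) on the log2 scale. In HCT116 NFKB1 read 57.5, 52.9 and 51.7 CPM with DMSO, 39.0, 49.2 and 48.2 CPM with TAK-981 and 53.8, 52.0 and 53.5 CPM with ML-792. The TAK-981 libraries lay below the controls without passing the test (-0.25, adjusted p = 0.0718), and the ML-792 value was -0.02 (adjusted p = 0.896). In THP-1 the values were 31.1, 32.4 and 32.5 CPM with DMSO and 34.9, 34.7 and 35.8 CPM with TAK-981. These groups did not overlap, but the difference of 0.13 (SE 0.0707, adjusted p = 0.106) made NFKB1 the 1 gene of the 10 not called in THP-1. On the FPKM scale, where the median of all 12139 genes moved by 0.19 in THP-1, the NFKB1 difference was 0.39, or 0.21 less that median, and was called. In MDA-MB-231 its differences were 0.06 and -0.02, neither called. RELA was called in THP-1 and in none of the 6 other comparisons, and read 21.2, 20.9 and 23.9 CPM with DMSO and 32.9, 33.6 and 32.9 CPM with TAK-981 in THP-1. Its groups were clearly apart there (0.59, SE 0.0803, adjusted p = 1.46e-05). In the 3 carcinoma lines RELA differences ran from -0.02 to 0.09, and in MDA-MB-231, the line with most RELA, the libraries overlapped throughout, at 137, 136 and 131 CPM with DMSO, 141, 143 and 124 CPM with TAK-981 and 134, 132 and 133 CPM with ML-792.

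The effect of TAK-981 differed among the 4 lines for NFKB1, NFKB2, RELA and RELB, as it did for the 6 other genes (edgeR's quasi-likelihood test of the line by TAK-981 interaction, all 10 called against 59.3% of all genes). Among the 3 carcinoma lines alone, 8 of 10 genes differed in their TAK-981 effect (background 21.6%) and 7 of 10 in their ML-792 effect (25.5%). RELA and NFKBIA were in neither of these counts, with adjusted p of 0.74 and 0.521 for TAK-981 and of 0.762 and 0.376 for ML-792. ICAM1 was not in the ML-792 count (adjusted p = 0.12).

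The classical inhibitor gene NFKBIA rose strongly in THP-1 and little elsewhere. It read 43.1, 42.3 and 45.0 CPM with DMSO and 173, 178 and 187 CPM with TAK-981 in THP-1. No other line came near that separation, which amounted to 2.04 on the log2 scale (SE 0.067, adjusted p = 2.99e-11). In MDA-MB-231 NFKBIA read 44.5, 51.8 and 54.1 CPM with DMSO, 58.7, 61.1 and 57.5 CPM with TAK-981 and 68.7, 51.9 and 64.1 CPM with ML-792. The TAK-981 libraries were just above the controls and the ML-792 libraries overlapped them. The ML-792 difference was called (0.29, SE 0.0857, adjusted p = 0.0229) but not without DMSO library 1, ML-792 library 1 or ML-792 library 3 (adjusted p 0.0711, 0.136 and 0.0938). The TAK-981 difference was not called in the unpaired fit (0.24, adjusted p = 0.0664) and was called with the replicate number as a block (0.24, adjusted p = 0.0448). In HCT116 the libraries read 35.1, 33.9 and 35.7 CPM with DMSO, 38.6, 39.0 and 40.1 CPM with TAK-981 and 40.9, 38.4 and 40.2 CPM with ML-792, so that all treated libraries exceeded the controls at differences of 0.17 and 0.19 that did not pass the test (adjusted p = 0.105 and 0.084). In Colo205 the differences were 0.03 and 0.05 with overlapping groups.

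NFKBIE, the gene of IkB-epsilon, read 42.3, 41.6 and 44.9 CPM with DMSO and 72.2, 76.9 and 76.1 CPM with TAK-981 in THP-1. It rose there by 0.81 (SE 0.0683, adjusted p = 1.23e-07), with the groups apart. In HCT116 NFKBIE read 7.28, 7.66 and 9.47 CPM with DMSO, 11.2, 11.8 and 9.46 CPM with TAK-981 and 10.6, 10.7 and 10.1 CPM with ML-792. The lowest TAK-981 library was level with the highest control. The difference was called (0.41, SE 0.125, adjusted p = 0.0409), but not when any of 4 libraries was left out (DMSO 1 or 2, TAK-981 1 or 2, adjusted p 0.0728 to 0.145). The ML-792 difference of 0.36 was not called (adjusted p = 0.0843), and it was called without DMSO library 3 (adjusted p = 0.04). In Colo205 NFKBIE was low, at 2.92, 2.63 and 2.39 CPM with DMSO, 4.27, 2.97 and 3.47 CPM with TAK-981 and 3.60, 2.95 and 3.06 CPM with ML-792. Treated libraries were above the controls, in a line where 50% (TAK-981) and 50.3% (ML-792) of all genes did not overlap with DMSO. Neither difference was called (0.44, adjusted p = 0.0703, and 0.27, adjusted p = 0.253). With the replicate number as a block, which pairs the libraries in that line, the TAK-981 difference was called (0.43, adjusted p = 0.0498). In MDA-MB-231 the differences were -0.06 and -0.14 and not called.

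BCL3, an IkB family member that can act with p50 or p52 dimers in the nucleus, moved in opposite directions in different lines. In THP-1 it read 1.42, 1.82 and 1.71 CPM with DMSO, from 24, 32 and 29 counts, and 11.4, 13.8 and 12.2 CPM with TAK-981, from 235, 264 and 241 counts. This was the highest log2 fold change of the 10 genes in that line, 2.91 (SE 0.158, adjusted p = 1.40e-09), from the lowest untreated BCL3 level of the 4 lines. In MDA-MB-231 BCL3 read 23.9, 24.7 and 27 CPM with DMSO, 34.9, 35.1 and 33.2 CPM with TAK-981 and 35.3, 28.4 and 32.3 CPM with ML-792. Both treated groups were above the controls, by 0.45 (SE 0.0736, adjusted p = 0.00037) and 0.34 (SE 0.0735, adjusted p = 0.00352). In Colo205 it read 12.4, 13.7 and 13.3 CPM with DMSO, 10.1, 11.5 and 9.72 CPM with TAK-981 and 7.96, 9.41 and 8.97 CPM with ML-792. There all treated libraries were below the controls, and BCL3 fell by 0.34 (TAK-981, SE 0.0979, adjusted p = 0.0153) and by 0.58 (ML-792, SE 0.1, adjusted p = 0.000454). The TAK-981 call was lost without DMSO library 2, TAK-981 library 1 or TAK-981 library 3 (adjusted p 0.0553, 0.0592 and 0.0689). In HCT116 the differences were 0.29 (adjusted p = 0.0632) and 0.11 and were not called. The difference in effect among the 3 carcinoma lines was called for BCL3 with both TAK-981 (adjusted p = 6.82e-05) and ML-792 (adjusted p = 8.15e-06).

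TNFAIP3, which encodes a ubiquitin-editing enzyme that shuts off signalling to the IkB kinases, rose in all 7 comparisons with DMSO. In THP-1 it read 13.8, 14.3 and 13.1 CPM with DMSO and 28.8, 32.5 and 31.1 CPM with TAK-981. The treated libraries all lay far above the controls (1.16, SE 0.0868, adjusted p = 3.22e-08). In MDA-MB-231 TNFAIP3 read 8.91, 10.5 and 8.79 CPM with DMSO, 15.7, 17.3 and 16.3 CPM with TAK-981 and 16.6, 13.3 and 15.1 CPM with ML-792. Treated and control libraries did not overlap, at 0.81 (SE 0.0971, adjusted p = 1.64e-05) and 0.67 (SE 0.0973, adjusted p = 0.000111). In HCT116 it was low, at 3.16, 3.68 and 4.6 CPM with DMSO, 5.53, 5.80 and 6.22 CPM with TAK-981 and 7.15, 6.50 and 7.03 CPM with ML-792. Both groups were above the controls, by 0.61 (SE 0.151, adjusted p = 0.0156) and 0.85 (SE 0.15, adjusted p = 0.00221), and the TAK-981 call was lost without DMSO library 1 or 2 (adjusted p 0.0561 and 0.056). In Colo205, with the highest untreated level, TNFAIP3 read 21.2, 23.8 and 23.0 CPM with DMSO, 28.9, 30.3 and 29.8 CPM with TAK-981 and 29.1, 29.8 and 29.1 CPM with ML-792. The treated libraries clustered tightly above the controls, by 0.39 (SE 0.0621, adjusted p = 0.000277) and 0.37 (SE 0.0623, adjusted p = 0.000359). Colo205 thus had TNFAIP3 called higher while NFKB1 and BCL3 were called lower, with each inhibitor.

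TNFAIP2, a gene induced by tumour necrosis factor in many cells, rose in THP-1 and MDA-MB-231 and was not called in either colorectal line. It read 78.3, 75.7 and 86.3 CPM with DMSO and 463, 542 and 517 CPM with TAK-981 in THP-1. The groups were far apart, with a change of 2.66 (SE 0.0809, adjusted p = 2.14e-11). In MDA-MB-231 TNFAIP2 read 151, 142 and 160 CPM with DMSO, 655, 601 and 605 CPM with TAK-981 and 677, 570 and 643 CPM with ML-792. Both inhibitors raised it to the same range, by 2.04 (SE 0.0598, adjusted p = 1.40e-12) and 2.06 (SE 0.0598, adjusted p = 1.77e-12). In HCT116 it read 64.7, 69.5 and 76.6 CPM with DMSO, 76.3, 76.4 and 75.8 CPM with TAK-981 and 79.7, 69.7 and 71.3 CPM with ML-792. These libraries overlapped at differences of 0.12 (adjusted p = 0.342) and 0.06 (adjusted p = 0.651), although the untreated level of 22.3 FPKM was close to the 22.5 FPKM of THP-1. In Colo205 the differences were 0.12 and 0.14. The difference in effect among the carcinoma lines had an adjusted p of 4.93e-16 for TAK-981 and 2.95e-16 for ML-792. Estimated counts of TNFAIP2 were fractional in 25 of 33 libraries, for which the cause was not tested.

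ICAM1, the adhesion molecule that binds leukocyte integrins, rose with both inhibitors in MDA-MB-231. It read 41.4, 48.1 and 46.3 CPM with DMSO, 81.9, 87.4 and 76.2 CPM with TAK-981 and 74.0, 60.2 and 67.8 CPM with ML-792 there. No treated library reached down to the controls, and the changes were 0.85 (SE 0.0731, adjusted p = 4.11e-07) and 0.57 (SE 0.0736, adjusted p = 3.45e-05). In THP-1 ICAM1 was near the detection limit, at 0.118, 0.454 and 0.294 CPM with DMSO, from 2, 8 and 5 counts, and at 1.26, 1.47 and 1.67 CPM with TAK-981, from 26, 28 and 33 counts. The groups did not overlap, and the fitted change of 2.31 (SE 0.382, adjusted p = 9.47e-05) rests on those few control counts. In that line ICAM1 passed the filter on low counts only through the TAK-981 libraries. In Colo205 it was also low, at 1.18, 1.11 and 1.75 CPM with DMSO, 1.16, 2.09 and 1.86 CPM with TAK-981 and 2.38, 2.42 and 1.97 CPM with ML-792. The ML-792 libraries were all above the controls, with a called difference of 0.75 (SE 0.257, adjusted p = 0.0314), against 0.33 (adjusted p = 0.373) with TAK-981. That call was lost without DMSO library 1 or 2 or ML-792 library 1 or 2 (adjusted p 0.0753 to 0.114). In HCT116 the differences were 0.20 and 0.17 with overlapping groups.

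TAK-981 and ML-792 were compared directly at the same dose and time in the 3 carcinoma lines, which gave 30 comparisons for the 10 genes. None was called, with or without a replicate block, while 0.0481% of all genes were called in HCT116, 0.00707% in Colo205 and 0.0215% in MDA-MB-231. By edgeR's quasi-likelihood test 6 of the 30 had an unadjusted p under 0.05, and the smallest adjusted p was 0.302, for NFKB1 in HCT116 (-0.22 for TAK-981 over ML-792, 95% interval -0.41 to -0.04). The highest difference was ICAM1 in MDA-MB-231 (0.29, interval 0.14 to 0.43, adjusted p = 0.503), where the TAK-981 libraries were all above the ML-792 libraries. That difference was called when genes with low counts were not filtered out (adjusted p = 0.013). The lowest was ICAM1 in Colo205 (-0.42, interval -0.96 to 0.12). For TNFAIP2 in MDA-MB-231, where both inhibitors gave a rise near 2, the difference was -0.02 with an interval of -0.14 to 0.10. The TAK-981 value was the higher one in 21 of the 30. The genes of a line share the same libraries, so the 30 are not independent, and the share of all genes leaning this way was not counted. Nor was the share of all genes with an unadjusted p under 0.05. All 30 intervals lay within 1 on the log2 scale, and 29 within a ratio of 1.5. These intervals bound the differences and do not show that the compounds act alike.

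**Figure D3:**
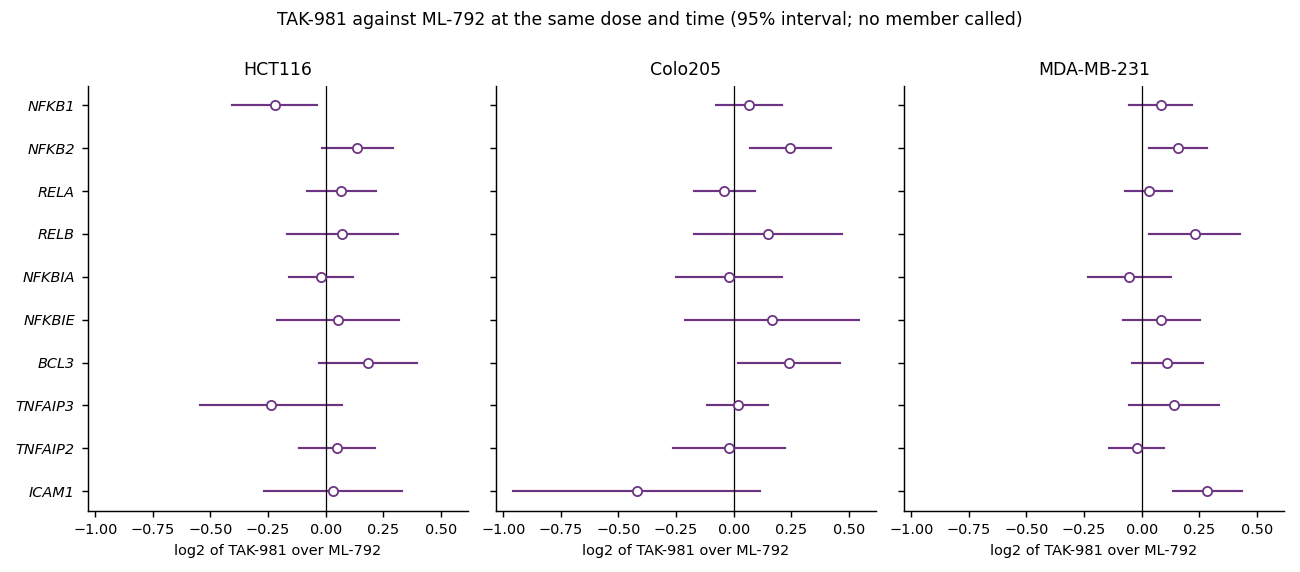
Log2 ratio of TAK-981 over ML-792 for each of the 10 genes in HCT116, Colo205 and MDA-MB-231, with 95% intervals as bars and open points because no gene was called. The widest bar belongs to ICAM1 in Colo205, from -0.96 to 0.12, and TNFAIP2 in MDA-MB-231 lies at -0.02.

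Around these 10 genes, 77 other genes of the pathway in 7 lists were read in the same fits. A gene low in the controls can pass the filter on low counts through its treated libraries alone, and can then hardly be called lower. Of 13 cytokine targets listed, 9 passed the filter in THP-1 and 7 in MDA-MB-231. In THP-1, 46 of 70 tested genes rose and 8 fell with TAK-981, against 35.5% and 33.9% of all genes. Of the receptors 10 of 11 genes were called higher and none lower, among them TLR1 (2.72, SE 0.167), CD40 (2.61, SE 0.130) and the lymphotoxin receptor gene LTBR (1.31, SE 0.077). Of the kinases 7 of 11 rose and 1 fell, with MAP3K14, the kinase that leads to processing of the NFKB2 product, at 1.99 (SE 0.137), MAP3K8 at 1.67 (SE 0.11) and TBK1 at 1.10 (SE 0.0781). Adaptors and ubiquitin ligases were divided, 8 higher and 3 lower of 16, with RIPK1 at 0.82, MYD88 at 0.52 and IRAK1, a kinase of Toll-like and interleukin-1 receptor signalling, at -1.22 (SE 0.065). Of the other subunits and IkB genes, NFKBIZ rose by 1.11 (SE 0.0887) and NFKBIB fell by 0.70 (SE 0.097). The ubiquitin-linked negative regulators had 6 higher and 2 lower of 10, including CYLD at 0.89 and PDLIM2 at 0.80. Cytokine targets had 6 of 9 higher and none lower, with CCL2 at 3.04 (SE 0.23), IL1B at 2.66 (SE 0.213) and CXCL8 at 2.0 (SE 0.121), and other targets 7 higher and 1 lower of 9, with IRF1 at 1.79 and PTGS2 at 2.27.

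In MDA-MB-231 18 of 69 other pathway genes rose and 7 fell with TAK-981, against 10.6% and 9.52% of all genes, and 19 rose and 8 fell with ML-792, against 11.6% and 11%. The counts of genes that fell were near these shares. Of 7 cytokine targets tested 6 rose with each inhibitor, among them IL6 (1.03 and 0.79), CXCL2 (0.84 and 0.76) and IL1B (1.29 and 1.26). IL6 went from 32.9 ± 1.70 FPKM (SD, n = 3) with DMSO to 67.1 ± 1.33 under TAK-981 and 57.6 ± 5.41 under ML-792, and was at or below 0.192 FPKM in every THP-1 library. Against that direction, the target gene G0S2 fell (-0.85 and -1.05), although it rose by 1.90 in THP-1, and PDLIM2, an E3 ligase for nuclear RELA, fell (-0.70 and -0.88). In HCT116 5 of 63 genes rose and 3 fell with each inhibitor, near the shares of all genes (7.66% and 6.73% with TAK-981, 5.99% and 5.27% with ML-792). Among them was RBCK1, a subunit of the linear ubiquitin ligase, at 0.83 and 0.62. In Colo205 15 of 62 rose and 9 fell with TAK-981, and 16 rose and 11 fell with ML-792, near the shares of all genes (17.9% and 18% with TAK-981, 20.9% and 20.8% with ML-792). There NFKBIZ fell (-0.71 and -0.86), the receptor gene TNFRSF1A fell (-0.63 and -0.57) and TNFRSF1B rose (0.55 and 0.78). The cytokine genes CCL20 (1.21 and 0.68), CXCL1 (1.25) and CXCL3 (1.21) rose with TAK-981, CCL20 also with ML-792. IER3, an immediate early target, was higher in all 7 comparisons as TNFAIP3 was, from 0.29 (HCT116, ML-792) to 3.85 (THP-1). PLAU, another target, fell in the 3 carcinoma lines with each inhibitor, from -0.41 to -1.56, and rose by 0.83 in THP-1. None of the pathway genes was called between TAK-981 and ML-792 in the unpaired fits, and 6 were called in Colo205 with the replicate number as a block, where the share of all genes called went from 0.00707% to 4.41%.

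**Figure D4:**
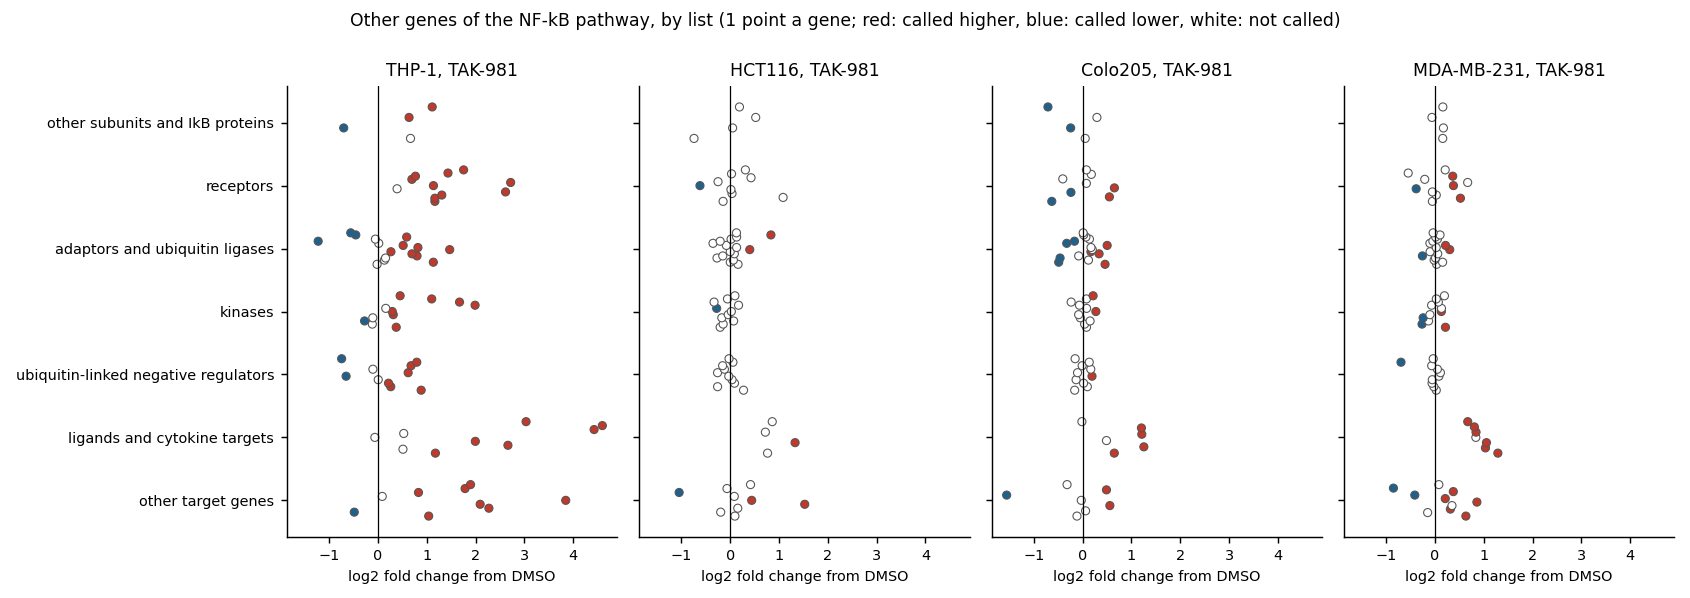
Log2 fold change with TAK-981 of the other pathway genes, 1 point per gene in rows by list, for the 4 lines, with genes called higher in red, called lower in blue and not called in white. Most points in the receptor and cytokine rows of THP-1 are red, with 10 of 11 and 6 of 9 genes called higher. Of all genes in THP-1, 35.5% were called higher. Only 9 of 13 cytokine genes passed the filter on low counts there. A gene that passes through treated libraries alone can hardly be called lower. HCT116 has the fewest coloured points, 5 higher and 3 lower, near the shares of all genes.

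The genes whose levels followed a member most closely were found by Pearson's r over the 33 libraries, on log2 CPM centred on the mean of each line, among 11465 genes. These points share lines, treatments and library depth, so r is a description. TNFAIP2 was followed most closely by SAMD9L (r = 0.984, and 0.969 over the 27 libraries without THP-1), PIM1 (0.970 and 0.941) and SNAI1 (0.967 and 0.945). Of the carcinoma lines, only MDA-MB-231 had TNFAIP2 called, so its values of r without THP-1 rest mainly on that line. TNFAIP3 was followed by OSGIN1 (0.952 and 0.916), SHANK3 (0.912 and 0.860) and IER3 (0.912 and 0.841). RELB and NFKB2 had SHB and MEPCE among their nearest genes, and r between the pair themselves was 0.948, or 0.862 without THP-1. For NFKB1 the values were 0.906 and 0.919 with SSFA2 and 0.906 and 0.902 with EFTUD2. By contrast, the nearest genes of NFKBIA rested on THP-1: ARHGAP25 went from 0.978 to 0.634, IFI44 from 0.971 to 0.516 and REXO1L1 from 0.969 to 0.323 without it. RELA with MAP3K14 went from 0.947 to 0.550 and BCL3 with DUSP6 from 0.957 to 0.716, while NFKBIE with ADAT3 (0.904 and 0.795) and ICAM1 with EPHB3 (0.850 and 0.720) moved less. Of the 45 pairs among the 10 genes, 18 had r over 0.8 with THP-1 and 1 without it. The share of all gene pairs with r over 0.8 was not counted.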

How the data were processed

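RNA from 33 libraries of 4 human lines was analysed. Per the labels' protocols, poly(A) RNA was prepared with a TruSeq kit and sequenced in pairs on a NovaSeq instrument. Per the file headers, the deposited values were the expected count and the FPKM of each gene. The authors' estimated counts carried no normalization, and 39 of the 330 values of the 10 genes were fractional. The FPKM values, scaled by the authors to gene length and library, were used for levels between genes and in alternatives. The sources used here name no aligner, counter, genome build or use of strand. Where strand is not used, a gene and its antisense partner cannot be told apart.

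Counts were rounded. With R 4.3.3 and edgeR 4.0.16, genes were filtered by filterByExpr at a minimum count of 10 and a minimum total of 15, scaled by TMM and tested line by line with the quasi-likelihood test, with Benjamini-Hochberg adjustment over all genes tested and calls at an adjusted p under 0.05. Differences between lines were tested in 1 fit of all 33 libraries. Intervals are at 95%. Alternatives used DESeq2 1.42.0, limma 3.58.1 on log2(FPKM + 1) or log2(FPKM + 0.1), no filter, no mitochondrially encoded genes, the 2 groups compared by themselves, a replicate block, and fits without 1 library. Scripts were tested on simulated data.

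Pairing by replicate number was checked from the correlation of deviations from the group means. Over all genes tested, same-numbered libraries of Colo205 correlated at -0.0388 to 0.137. Over genes of at least 50 CPM, a limit set after seeing the data, all 9 pairs were above the threshold of 0.1 (0.268 to 0.592), as were 6 of 9 in MDA-MB-231, including each of DMSO with TAK-981, and 3 of 9 in HCT116. Numbers were taken to pair libraries in Colo205 and, for TAK-981, in MDA-MB-231.

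The 10 genes, the 7 pathway lists and the markers were chosen with earlier results of these data known. For each list, up to 3 called genes with the smallest adjusted p were named per comparison, and for likeness the 3 genes with the highest r among those with a mean of at least 5 CPM. IER3, PLAU and IL6 in THP-1 were added after their values were seen. The list genes CXCL8 and OTULIN were matched by an older symbol.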

Additional observations from a re-analysis of the deposited data

Results flagged for a closer look

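The effect of TAK-981 differed among the 4 human lines for each of the 10 genes, by edgeR's quasi-likelihood test of the line by TAK-981 interaction with Benjamini-Hochberg adjustment over all genes. Adjusted p was 1.83e-05 for NFKB1, 1.03e-08 for NFKB2, 3.31e-07 for RELA and 7.24e-08 for RELB. It was 3.55e-17 for NFKBIA, 6.33e-07 for NFKBIE and 2.27e-16 for BCL3. It was 3.39e-06 for TNFAIP3, 1.73e-20 for TNFAIP2 and 4.8e-05 for ICAM1. The log2 fold change in THP-1 was above that in each carcinoma line for all 10 genes. The share of all genes with their highest value in THP-1 was not counted. For NFKB1 the values were close in THP-1 (0.13, SE 0.0707) and MDA-MB-231 (0.06, SE 0.0646), and neither was called. ICAM1 passed the filter on low counts in the THP-1 fit only through its TAK-981 libraries. The effect of TAK-981 differed among the 4 lines for 59.3% of all genes.

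Among HCT116, Colo205 and MDA-MB-231 the TAK-981 effect differed for NFKB1 (adjusted p = 0.00299), NFKB2 (0.000374), RELB (0.0107) and NFKBIE (0.0139), where 21.6% of all genes did. It also differed for BCL3 (6.82e-05), TNFAIP3 (0.0416), TNFAIP2 (4.93e-16) and ICAM1 (0.0106). The ML-792 effect differed for NFKB1 (0.000836), NFKB2 (5.12e-05), RELB (0.0059) and NFKBIE (0.0155), where 25.5% of all genes did. It also differed for BCL3 (8.15e-06), TNFAIP3 (0.0251) and TNFAIP2 (2.95e-16). NFKBIE was the 1 gene of these with its lowest value in MDA-MB-231, at -0.06 with TAK-981 and -0.14 with ML-792.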

How the results depend on the processing

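Of 1472 values of the 10 genes under alternative settings, 1424 kept their side of the threshold, 35 lost a call (8 results) and 13 gained one (7 results). None of the 36 called changes from DMSO reversed. The 1424 include 50 changes of sign, all among differences that were not called (-0.08 to 0.06, adjusted p of at least 0.552). The number called with ML-792 in Colo205 was 5 and went to 3 with DESeq2's test. The number called with TAK-981 in HCT116 was 4 and went to 2 with limma on FPKM at either pseudocount and without a filter. Without a filter on low counts, 1 gene instead of 0 was called between TAK-981 and ML-792 in MDA-MB-231. The cause was not tested. The counts under these settings are given without the shares of all genes called in the same fits.

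Leaving out 1 library gave 9 to 9 genes called in THP-1, 2 to 5 with TAK-981 and 3 to 4 with ML-792 in HCT116, 2 to 4 and 3 to 5 in Colo205, and 6 to 6 and 4 to 7 in MDA-MB-231, and 0 between the inhibitors. These counts stand without the shares of all genes called in the same fits. With the replicate block, TAK-981 and ML-792 called 3 and 3 genes in HCT116 (12.5% and 9.86% of all genes). They called 4 and 5 in Colo205 (43.2% and 48.7%), near those shares, and 7 and 6 in MDA-MB-231 (25.1% and 27.7%). In HCT116, where the libraries share only a number, NFKBIE with TAK-981 was not called with the block (0.41, adjusted p = 0.0649). No paired analysis was possible because of the numbers in THP-1, whose groups share none. Low counts limit ICAM1 in THP-1 and Colo205 and NFKBIE in Colo205.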
